A study of Drosophila melanogaster with 9 samples.

Results

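RNA libraries of a Drosophila ovary series were set against each other to describe which genes differed once Piwi was knocked down in germ cells that were already low in HP1a. They are the 2 libraries of the double germline knockdown (double-GKD) and the 2 libraries whose table names give wild-type Piwi with HP1a knockdown, 4 of the 9 samples of the series. The latter carry the sample label Piwi-GKD, but it is the mRNA of HP1a that was low in them, and the other single knockdown shows the opposite mismatch. Their genotype is therefore not taken from the label, and both single knockdowns are called by it only: the Piwi-GKD-labelled libraries, and for the other group the HP1a-GKD-labelled ones. The 4 libraries of Ctrl and of the group labelled HP1a-GKD served as the same comparison with normal HP1a mRNA.

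All females were 0 to 1 day old, came from crosses at 18 °C and were sisters of the same cross. All carried a UAS-Dcr-2 transgene and the P{GAL4-nos.NGT} driver, whose nos promoter is active in the germline, so that the somatic cells of the ovary keep both proteins. By the labels, double-GKD carried UAS-Piwi-RNAi over GAL4 on chromosome 2 and UAS-HP1a-RNAi over a wild-type chromosome 3. Piwi-GKD had UAS-Piwi-RNAi over GAL4 with the TM3 balancer, HP1a-GKD had GAL4 over the Cy balancer with UAS-HP1a-RNAi, and Ctrl had GAL4 over Cy with TM3. If the table names and the target mRNAs are right, double-GKD and the Piwi-GKD-labelled libraries differed by the UAS-Piwi-RNAi chromosome 2 in place of Cy. The loss of Piwi and this exchange of a second chromosome cannot be told apart in that comparison. Each library was made from the pooled ovaries of many females.

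Piwi is a nuclear Argonaute protein that is guided to nascent transcripts by small RNAs called piRNAs. It recruits a silencing complex to transposable elements (TEs) and their surroundings, where histone H3 becomes methylated at lysine 9. HP1a binds this methylation, compacts chromatin and also has functions at genes and telomeres that do not need piRNAs. In the ovary, nurse cells and the oocyte depend on Piwi for the repression of TEs.

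Estimated counts summed to between 10773406 and 12750273 in the 4 libraries, and log2 CPM (counts per 1000000) of 2 replicates correlated with Pearson's r of 0.966 in the Piwi-GKD-labelled libraries and 0.963 in double-GKD. This correlation is across genes, which are not independent replicates. Summed TPM (transcripts per 1000000 transcripts) of 6 germline markers stood at 360.4 and 319.6 in the Piwi-GKD-labelled libraries, 324.8 and 314.2 in double-GKD, and 1355 and 1357 in Ctrl. For 7 muscle genes of the ovary sheath the sums were 8998 and 7663 in the Piwi-GKD-labelled libraries, 7819 and 6560 in double-GKD and 1982 and 1941 in Ctrl. The 5 follicle cell markers summed to between 289 and 420 in the 4 libraries and to 136 and 106 in Ctrl. For 5 markers of late follicle cells the sum was no more than 5.67 in the 4 libraries. Fat body genes summed to between 342 and 557 in the 4 libraries and to 127 and 84.5 in Ctrl. Haemocyte genes summed to between 153 and 272, against 37.7 and 28.9 in Ctrl. Thus, both groups with low HP1a mRNA had a lower germline sum and higher muscle, follicle, fat body and haemocyte sums than Ctrl. The ranges of both groups overlapped for each of these lists. The germline sum was mostly osk in Ctrl, at 1025 and 1060 TPM. Of its members, osk, orb, bam and aub were lower than Ctrl in both groups. Rbp9 and bgcn were higher, with Rbp9 at a mean of 12.6 TPM in Ctrl, 47.1 in the Piwi-GKD-labelled libraries and 34.4 in double-GKD. Fewer cells of a type and less RNA per cell cannot be told apart in such samples.

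The mRNA of piwi (FBgn0004872, arm 2L) was the first check of the comparison. Its TPM was 259 and 229 in the Piwi-GKD-labelled libraries and 158 and 147 in double-GKD, beside 318 and 276 in Ctrl. The groups did not overlap, and piwi fell 1.52-fold (log2 fold change -0.60 ± 0.08 SE, edgeR adjusted p = 0.019). The call was lost when only these 4 libraries were fitted (adjusted p = 0.099). In the HP1a-GKD-labelled libraries against Ctrl the fall was 2.34-fold (log2 fold change -1.23, adjusted p = 0.00065), and the difference between both falls was not called (adjusted p = 0.093). HP1a mRNA (FBgn0003607, 2L) stood at 166 and 189 TPM in the Piwi-GKD-labelled libraries and 161 and 172 in double-GKD, against 327 and 328 in Ctrl. The groups overlapped, and the log2 fold change was -0.05 ± 0.15 SE (adjusted p = 0.94). HP1a mRNA was therefore low on both sides of the comparison.

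**Figure D1:**
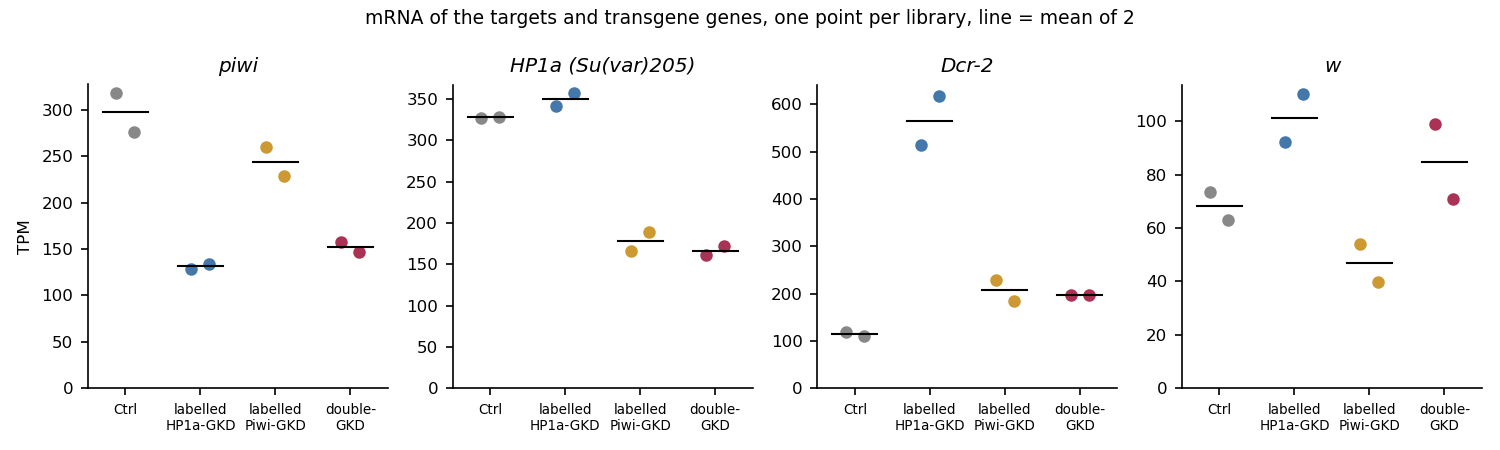
TPM of piwi, HP1a, Dcr-2 and w by group, with a point for each library and a line at the mean of 2. HP1a mRNA lies between 161 and 189 TPM in both the Piwi-GKD-labelled libraries and double-GKD, whereas piwi lies at 229 or above in the former and at 158 or below in the latter.

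Few genes differed between double-GKD and the Piwi-GKD-labelled libraries. Of 9346 genes tested, 97 passed an adjusted p under 0.05 (1.04%), 39 of them higher in double-GKD (0.417%) and 58 lower (0.621%). In all 97 the libraries of both groups did not overlap in CPM, which was the case for 39.7% of all tested genes. The change exceeded 2-fold for 22 of the higher genes and 48 of the lower ones. Of the called genes, 5 share their start and end with a neighbour, so that their counts are uncertain. The median log2 fold change of all genes was 0.01. The count depends on the fit, since DESeq2 called 102 higher and 119 lower genes, and a fit of the 4 libraries alone called 15 and 26, with 33 of the 97 genes among them. With 1 library left out, 12 and 11 genes were called without Piwi-GKD-labelled replicate 1, 10 and 4 without replicate 2 of that group, 15 and 9 without double-GKD replicate 1, and 18 and 22 without double-GKD replicate 2.

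Among the 97 genes, 9 were called in each of these 4 smaller fits. They were RpL22-like, clos, CG18853, Cyp12d1-d, Ugt36F1, CG42750 and 3 genes of overlapping pairs (Rpp20, CG33932 and sloth1), whose counts are uncertain. In none of the 4 fits were 71 of the 97 called, and all 97 kept their direction in each.

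Most of the lower genes had less mRNA in Ctrl than in the Piwi-GKD-labelled libraries. Their median TPM was 2.84 in Ctrl, 1.83 in the HP1a-GKD-labelled libraries, 27.0 in the Piwi-GKD-labelled ones and 5.02 in double-GKD. For all tested genes these medians were 17.9, 18.6, 23.8 and 22.4, so that the lower genes were close to the general level in the Piwi-GKD-labelled libraries and below it in the other groups. Both Ctrl libraries lay below both Piwi-GKD-labelled libraries for 51 of the 58 (87.9%, against 55.2% of all tested genes), and the mean was over 5-fold higher for 26 (44.8%, against 7.32%). The Piwi-GKD-labelled libraries chose these genes and enter both shares, so the shares are only a description. Of the 58 genes, 31 lie on chromosome 2, 25 on others and 2 had no arm in the tables used.

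Several paralogs of housekeeping genes, named here after their values were seen, were among them. RpL22-like, the paralog of ribosomal protein gene RpL22 that is known for its expression in gonads, had a TPM of 134 and 125 in the Piwi-GKD-labelled libraries and 17.2 and 14.5 in double-GKD. In Ctrl it was at 0.586 and 0.529 and in the HP1a-GKD-labelled libraries at 0.923 and 1.60. It fell 7.56-fold (log2 fold change -2.92 ± 0.21 SE, adjusted p = 0.0031), and remained far above Ctrl in double-GKD. With normal HP1a mRNA its log2 fold change was 0.70 (adjusted p = 0.65), and the difference between both responses, -3.62, was called (adjusted p = 0.019). RpL22-like is thus among the genes whose log2 fold change differed between low and normal HP1a mRNA. With normal HP1a mRNA it averaged 0.517 CPM in Ctrl and 0.850 in the HP1a-GKD-labelled libraries. In Ctrl, 3 counts stand at 0.244 and 0.234 CPM, so that a fall of this size could not have been measured there.

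gNacalpha, the germline copy of a subunit of the nascent polypeptide-associated complex, was at 92.8 and 85.4 TPM in the Piwi-GKD-labelled libraries, 29.0 and 29.5 in double-GKD and at most 2.19 elsewhere (log2 fold change -1.53, adjusted p = 0.018). RpS19b, a germline paralog of RpS19, was at 243 and 260 in the Piwi-GKD-labelled libraries, 120 and 129 in double-GKD and between 24.0 and 32.1 in the other 4 libraries (log2 fold change -0.94, adjusted p = 0.034). The same order of groups was seen for Taf12L, a paralog of a TFIID subunit gene, with 32.5 and 33.4 TPM falling to 4.92 and 4.80 (adjusted p = 0.041). For ATPsynepsilonL, a paralog of an ATP synthase subunit gene, the levels were 74.0 and 65.7 in the Piwi-GKD-labelled libraries and 18.1 and 18.7 in double-GKD (adjusted p = 0.043). Ant2, a paralog of the mitochondrial ADP/ATP carrier gene sesB, fell from 29.7 and 26.8 to 14.2 and 13.3 (adjusted p = 0.035), and eEF1alpha2, a second gene for the elongation factor, from 20.0 and 13.5 to 5.85 and 4.49 (adjusted p = 0.048). The calls of the 6 genes after RpL22-like were each lost without any 1 of the 4 libraries (adjusted p from 0.059 to 0.261). In these genes double-GKD stood between the Piwi-GKD-labelled libraries and Ctrl. Of them, only RpL22-like and gNacalpha were called in the interaction, and both were low in Ctrl, which limits the fall that could be seen with normal HP1a mRNA. The summed TPM of 6 testis differentiation genes (can, sa, mia, aly, dj and Mst87F) was no more than 6.33 in any library, and the single one tested, mia, was not called.

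Other lower genes act in germ cells. bgcn, the partner of bam in the switch from stem cell to cyst, was at 10.5 and 7.39 TPM in the Piwi-GKD-labelled libraries, 3.24 and 2.64 in double-GKD and 1.56 and 1.37 in Ctrl (log2 fold change -1.52 ± 0.19 SE, adjusted p = 0.019). It was the single call among 6 germline markers, beside 1.04% of all tested genes called. bam itself had a log2 fold change of -0.81 and did not pass (adjusted p = 0.13). qin, which encodes a Tudor domain protein of the perinuclear nuage that takes part in piRNA amplification, fell 1.74-fold from 34.4 and 27.5 to 17.2 and 16.4 TPM (log2 fold change -0.80 ± 0.08 SE, adjusted p = 0.013). Unlike the paralogs above, qin was higher in Ctrl, at 48.0 and 39.9, than in the Piwi-GKD-labelled libraries. sunn and SA2, both encoding cohesin-related proteins, fell 2.15-fold and 3.19-fold (adjusted p = 0.032 and 0.043). Corp, a regulator of p53 in the fly, was at 83.0 and 76.7 TPM in the Piwi-GKD-labelled libraries and 35.4 and 31.8 in double-GKD, a 2.25-fold fall (adjusted p = 0.011). It was the single call among 13 tested genes of DNA damage and cell death, a count too small to set apart from the 1.04% of all tested genes. The calls of bgcn, qin, sunn, SA2 and Corp were each lost without any 1 of the 4 libraries (adjusted p from 0.051 to 0.267).

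Further lower genes lay outside these groups and were named after their values were seen. CG42854 (X) stood at 58.7 and 64.1 TPM in the Piwi-GKD-labelled libraries, 18.2 and 19.7 in double-GKD and at most 1.32 in the other 4 libraries (adjusted p = 0.025). CG12477 (3L) was at 35.1 and 38.8 in the Piwi-GKD-labelled libraries, 6.77 and 8.44 in double-GKD and at most 0.724 in the other 4 libraries (adjusted p = 0.019). Both had positive log2 fold changes with normal HP1a mRNA, 0.36 and 0.79, that did not pass the test. Hsp60C, a paralog of the mitochondrial chaperonin gene, was at 2.97 and 2.80 TPM in the Piwi-GKD-labelled libraries and 0.678 and 0.385 in double-GKD (adjusted p = 0.019). PPO2, a prophenoloxidase of crystal cells, fell from 16.6 and 15.4 to 4.07 and 4.72 (adjusted p = 0.013), while the haemocyte markers Hml, NimC1 and Pxn were not called. daw, an activin-type ligand gene, fell from 5.08 and 3.62 to 1.48 and 1.30 (adjusted p = 0.032). CG10063 on 3L fell from 62.0 and 58.0 to 23.4 and 18.9 TPM (log2 fold change -1.43, adjusted p = 0.011), and was at 11.3 TPM in Ctrl replicate 1. With any 1 of the 4 libraries left out these calls were lost, except for PPO2 without double-GKD replicate 2 (adjusted p = 0.031) and CG10063 without Piwi-GKD-labelled replicate 1 (adjusted p = 0.037).

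**Figure D2:**
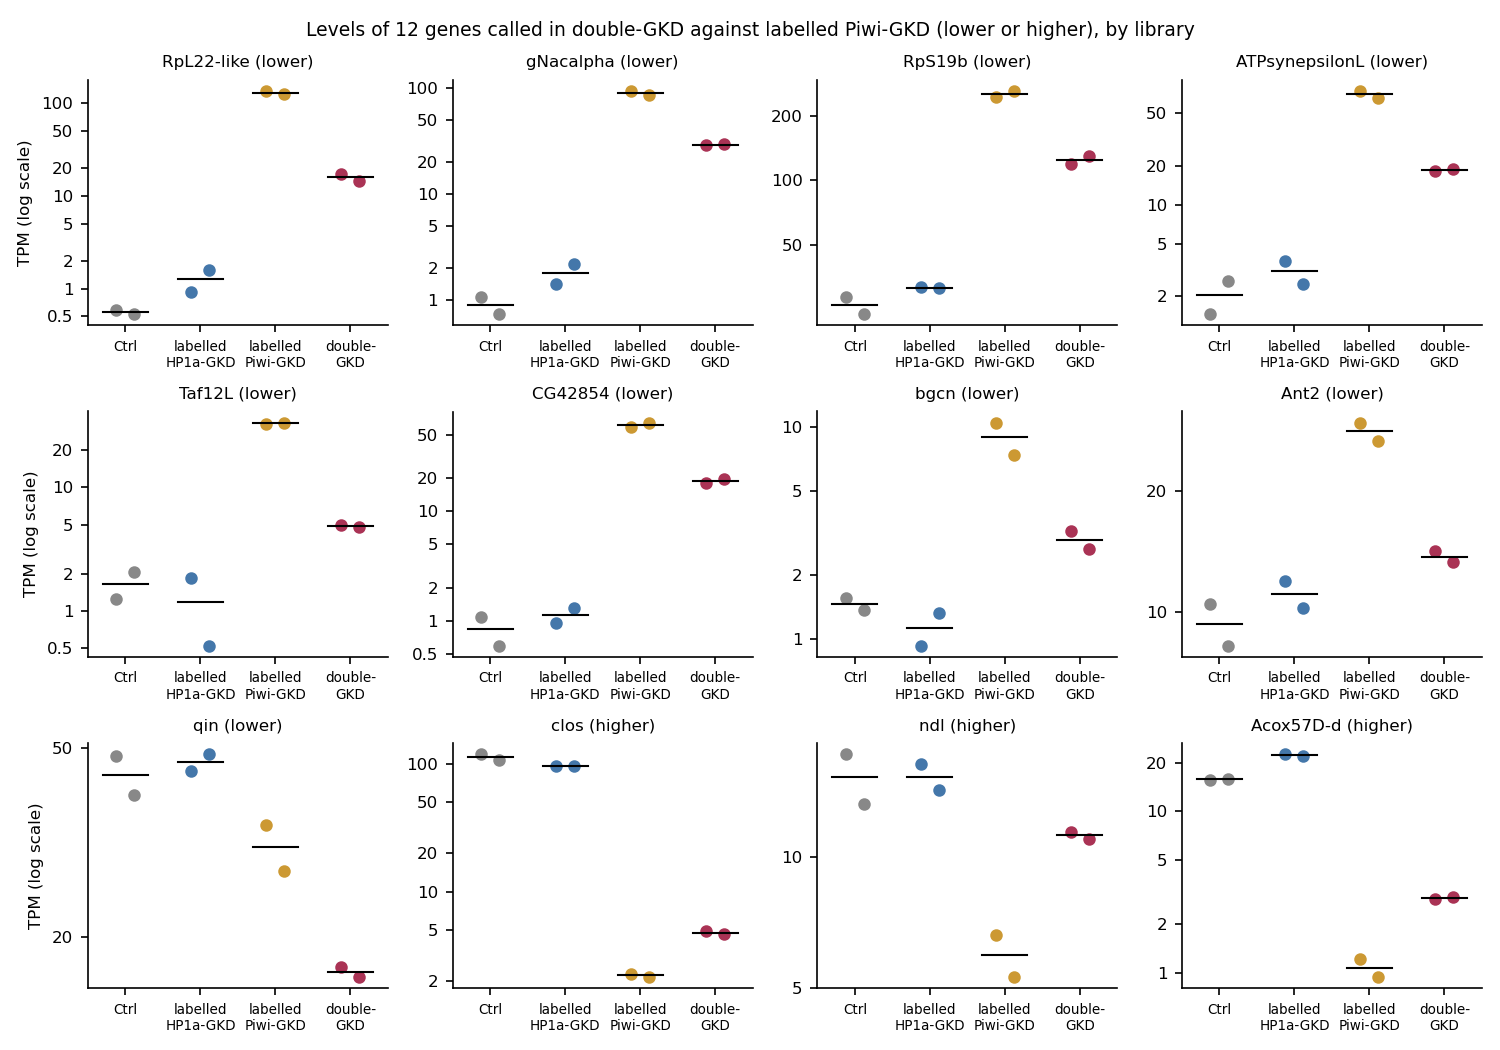
TPM on a log scale of 12 called genes by group, with a point for each library and a line at the mean of 2. In the paralogs RpL22-like to Taf12L, in CG42854, bgcn and Ant2, double-GKD lies between the Piwi-GKD-labelled libraries and the 4 libraries of Ctrl and the HP1a-GKD-labelled ones. For clos, ndl and Acox57D-d it lies above the Piwi-GKD-labelled libraries.

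Genes of the eggshell and terminal patterning were among the higher ones. clos, which encodes an eggshell protein needed for the patterning of the embryo's ends, was at 2.28 and 2.14 TPM in the Piwi-GKD-labelled libraries and 4.90 and 4.66 in double-GKD, against 119 and 107 in Ctrl. It rose 2.28-fold (log2 fold change 1.19 ± 0.10 SE, adjusted p = 0.005), whereas it did not pass with normal HP1a mRNA (log2 fold change -0.29, adjusted p = 0.19). The difference between both responses was 1.48 (adjusted p = 0.0048). ndl, the eggshell protease that starts the dorsoventral cascade, was at 6.60 and 5.29 in the Piwi-GKD-labelled libraries and 11.4 and 11.0 in double-GKD (adjusted p = 0.017). In Ctrl it was at 17.2 and 13.2. ndl was named after its values were seen, and its call was lost without any 1 of the 4 libraries (adjusted p from 0.070 to 0.121). psd, a vitelline membrane gene and the single late follicle cell marker tested, had 0.955 and 0.468 TPM in the Piwi-GKD-labelled libraries and 2.90 and 2.93 in double-GKD, with an adjusted p of 0.15. The part of later follicle cells in the higher values of ndl and psd was not tested, and neither was the cell type behind the rise of clos.

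Several enzyme genes were among the other rises. CG42750, which has no overlapping partner, showed the highest change outside such pairs, with 0.229 and 0.134 TPM in the Piwi-GKD-labelled libraries and 7.09 and 4.42 in double-GKD (log2 fold change 5.06 ± 0.34 SE, adjusted p = 0.0023). Ugt36F1, a UDP-glycosyltransferase gene, was at 2.84 and 3.32 in the Piwi-GKD-labelled libraries and 17.9 and 14.3 in double-GKD, a 5.42-fold rise (adjusted p = 0.0078). Cyp12d1-d, a cytochrome P450 gene, rose 4.62-fold from 4.44 and 4.64 to 20.4 and 19.7 (adjusted p = 0.005). Cyp12d1-d has a near-identical neighbour, Cyp12d1-p, so that its counts are uncertain. GstE14, a glutathione S-transferase gene needed for ecdysteroid synthesis, rose 4.44-fold from 6.22 and 4.55 to 20.2 and 24.5 (adjusted p = 0.0078). Acox57D-d, a peroxisomal acyl-CoA oxidase gene, rose 2.85-fold from 1.22 and 0.944 to 2.87 and 2.95 (adjusted p = 0.013). In Ctrl, Acox57D-d was at 15.6 and 16.0 TPM. Its call was lost when only the 4 libraries were fitted (adjusted p = 0.084). CG13992 rose 3.21-fold (adjusted p = 0.036). Without any 1 of the 4 libraries the call of CG13992 was lost, with a log2 fold change from 1.61 to 1.75. Of the 16 genes of a fixed P450 list, Cyp12a4 was the single call, beside 1.04% of all tested genes. The called P450 genes Cyp12d1-d, Cyp6g2, Cyp6a17 and Cyp6d2 are not on that list.

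Enzymes fell as well. Cyp6g2, another P450 gene, had 92.0 and 67.2 counts in the Piwi-GKD-labelled libraries and 5.0 and 3.0 in double-GKD (log2 fold change -4.23 ± 0.43 SE, adjusted p = 0.011). Dat, which encodes a dopamine N-acetyltransferase, fell 1.95-fold from 168 and 123 to 72.7 and 67.4 TPM (adjusted p = 0.010). Ada1-1, a gene for a subunit of a histone acetyltransferase complex, had 60.2 and 102 counts in the Piwi-GKD-labelled libraries and none in either double-GKD library. Against a floor of 3 counts per library it was at least 26.7-fold lower (adjusted p = 0.025), and it was also at 0 in both HP1a-GKD-labelled libraries while Ctrl had 3.81 and 6.07 TPM. CG12674 followed the same order, with 90.0 and 68.0 counts against 0 and 3.0. Ddr, encoding a discoidin domain receptor, fell 8.59-fold and Dpp10, a gene of the dipeptidyl peptidase family, 7.67-fold (adjusted p = 0.023 and 0.019). The calls of Dat, CG12674 and Dpp10 were lost when only the 4 libraries were fitted (adjusted p = 0.051, 0.051 and 0.061). Those of Ada1-1 and Ddr were lost without any 1 of the 4 libraries, and Cyp6g2 kept its call only without double-GKD replicate 1.

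Many of the called genes lie on chromosome 2. It holds 37.5% of the tested genes, but 61 of the 97 called ones (62.9%), namely 30 of the 39 higher and 31 of the 58 lower genes. By arm, 2.00% of tested genes were called on 2L and 1.51% on 2R, 1.11% on X, 0.583% on 3L and 0.321% on 3R, while none of 74 was called on chromosome 4. These shares count 5 genes of overlapping pairs with uncertain counts, namely Rpp20, CG33932, sloth1 and sloth2 on X and CG42740 on 3R. The median log2 fold change of tested genes was -0.21 on chromosome 4 and between -0.015 and 0.025 on the other arms. In the HP1a-GKD-labelled libraries against Ctrl, 77 of 128 called genes (60.2%) lay on chromosome 2. Without double-GKD replicate 1, the share in the first comparison was 75.0%, and it stayed between 57.3 and 67.5% in each of the other fits. Both comparisons differ by the same second chromosomes if the target mRNAs are right, so that the loss of Piwi and the balancer cannot be told apart in either.

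**Figure D3:**
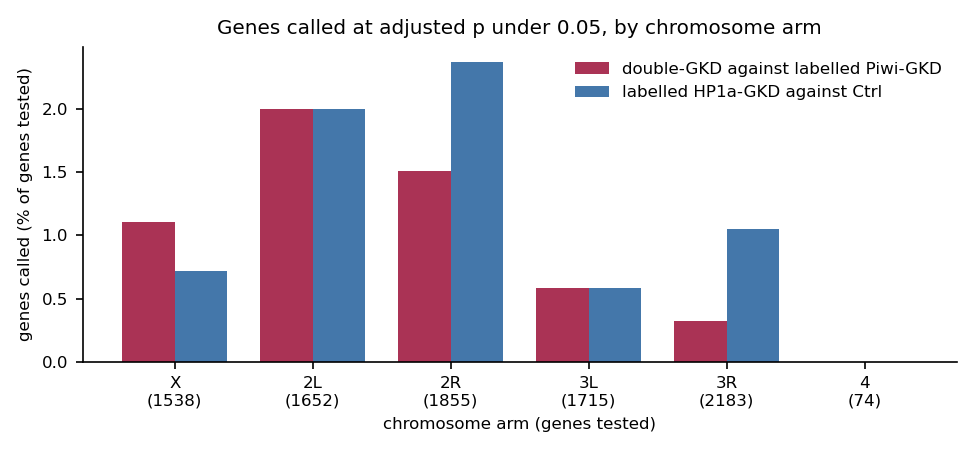
Share of tested genes called at an adjusted p under 0.05, by chromosome arm, for both comparisons, with the number of tested genes in brackets. In double-GKD against the Piwi-GKD-labelled libraries the share is 2.00% on 2L and 1.51% on 2R, above the 0.321 to 1.11% of X, 3L and 3R. The shares of X and 3R include 5 genes of overlapping pairs, whose counts are uncertain.

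Smaller rises on chromosome 2 were also named after their values were seen, and in each the libraries of both groups did not overlap. Marf1, which encodes an RNA-binding regulator of meiosis, was at 17.1 and 17.1 TPM in the Piwi-GKD-labelled libraries and 30.9 and 33.3 in double-GKD (log2 fold change 0.99, adjusted p = 0.019). With normal HP1a mRNA it was at 117 and 113 against 74.6 and 68.7 in Ctrl, again a rise (log2 fold change 0.73). frtz, a planar polarity gene, rose from 11.3 and 8.87 to 21.3 and 23.6 (adjusted p = 0.019), and Ugt36E1, next in family to Ugt36F1, from 26.6 and 24.9 to 54.5 and 42.1 (adjusted p = 0.018). Pomp, which encodes a proteasome assembly factor, rose from 142 and 140.3 to 199 and 205.2 (adjusted p = 0.048), and Gart, a gene of purine synthesis, from 57.8 and 49.5 to 70.8 and 64.2 (adjusted p = 0.048). For Pomp and Gart the change with normal HP1a mRNA did not pass. The lower genes on chromosome 2 held 2 further P450 genes, with Cyp6a17 falling from 57.3 and 54.7 to 21.8 and 22.1 TPM and Cyp6d2 from 41.2 and 39.9 to 16.7 and 15.5 (adjusted p = 0.019 and 0.032). Both also fell with normal HP1a mRNA, to 7.35 and 7.73 from 15.9 and 18.8 for Cyp6a17. With any 1 of the 4 libraries left out these calls were lost, except for Marf1 without double-GKD replicate 1 (adjusted p = 0.039) and Ugt36E1 without double-GKD replicate 2 (adjusted p = 0.045).

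To find genes that responded with and without HP1a, the calls were set beside those of the HP1a-GKD-labelled libraries against Ctrl, which share no library with the first comparison. There, 128 genes were called (1.37%), 82 higher (0.877%) and 46 lower (0.492%). Both comparisons called 36 genes, and 35 of them in the same direction (0.374% of tested genes), 20 higher and 15 lower. These 35 are 36.1% of the genes called once HP1a was low and 27.3% of those called with normal HP1a mRNA. The number fell to between 4 and 18 when any 1 of the 8 libraries was left out, with the lowest value, 4, without HP1a-GKD-labelled replicate 1.

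The shared responses were almost all on chromosome 2, with 32 of 35, and Cyp12a4, CG34002 and eyg as the exceptions. Of the 61 called genes on chromosome 2, 32 were shared, and of the 34 on other chromosomes 3. Several of them changed by like factors. Ugt36F1 had log2 fold changes of 2.44 and 2.45 with low and normal HP1a mRNA, CG18853 of 1.41 and 1.26, and CG14275 of 1.18 and 1.09. CG5773 fell by 1.97 and 2.45 on the log2 scale, and Cyp6g2 by 4.23 and 4.40. On the same scale GstE14 rose by 2.15 and 1.62, CG42750 by 5.06 and 4.01, CG34109 by 2.88 and 3.39, and CG5504 by 0.79 and 0.65. pr, an eye pigment gene for a pteridine enzyme on 2L, rose by 0.69 and 0.75. None of these 9 genes nor pr was called in the interaction. CG15930 on X was the single gene called in opposite directions, with -0.88 and 1.09 (interaction adjusted p = 0.017).

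**Figure D4:**
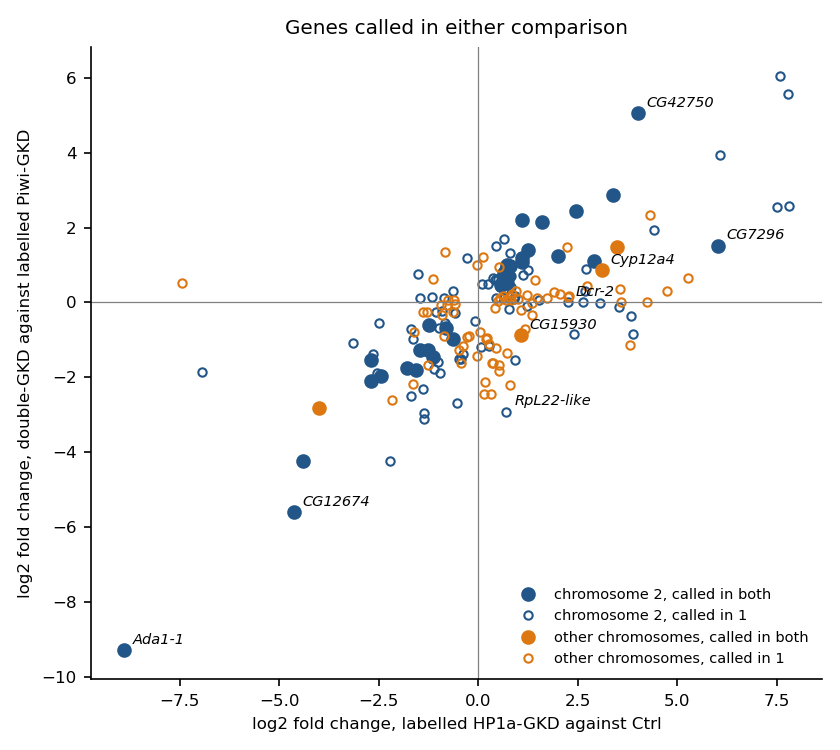
Log2 fold changes of genes called in either comparison, with normal HP1a mRNA on the x axis and low HP1a mRNA on the y axis, without genes of overlapping pairs. Filled points are called in both and lie mostly on chromosome 2. RpL22-like falls on the y axis only and CG7296 rises far more on the x axis. Values beyond 6 in size rest on a group with few or no counts.

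Of the genes called with normal HP1a mRNA, 92 did not pass once HP1a was low, and for 13 of these the interaction was called. In all, the interaction called 25 genes (0.267%), 20 negative (0.214%) and 5 positive (0.0535%). A gene that passes in one comparison and not in the other has not been shown to differ without this test, which leaves 79 of the 92 undecided. Dcr-2 was among the negative ones. It had 514 and 617 TPM in the HP1a-GKD-labelled libraries and 119 and 111 in Ctrl, but 230 and 186 in the Piwi-GKD-labelled libraries and 196 and 198 in double-GKD. Its log2 fold change was 2.25 with normal HP1a mRNA and 0.01 with low HP1a mRNA (interaction -2.24, adjusted p = 0.0019). All genotypes carry a Dcr-2 transgene, and its transcripts cannot be told apart from those of the endogenous gene in these tables.

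CG30345 had 127 and 104 TPM in the HP1a-GKD-labelled libraries against 14.1 and 12.6 in Ctrl, while double-GKD with 46.8 and 43.5 overlapped the 52.1 and 44.7 of the Piwi-GKD-labelled libraries (interaction -3.09, adjusted p = 0.00084). CG2187 rose 11.7-fold with normal HP1a mRNA and had a log2 fold change of 0.36 with low HP1a mRNA (interaction -3.20, adjusted p = 0.0019). twz stood at 9.98 and 8.04 TPM in the HP1a-GKD-labelled libraries and 1.83 and 1.38 in Ctrl. In the Piwi-GKD-labelled libraries it was at 8.15 and 7.15, and in double-GKD at 4.55 and 3.62 (interaction -3.26, adjusted p = 0.003). In CG30345 and twz, then, the Piwi-GKD-labelled libraries stood above Ctrl without the added Piwi knockdown.

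Among the interaction genes outside the rule, named after their values were seen, hiw, a ubiquitin ligase gene of the nervous system, was at 3.08 and 2.88 TPM in the HP1a-GKD-labelled libraries, 0.640 and 0.554 in Ctrl and between 1.75 and 2.47 in the other 4 (interaction -2.10, adjusted p = 0.0073). RpS10a, a germline-enriched paralog of RpS10, rose from 10.1 and 8.50 to 21.0 and 22.7 with normal HP1a mRNA, while it was at 105 and 119 in the Piwi-GKD-labelled libraries and 63.4 and 66.9 in double-GKD (interaction -1.89, adjusted p = 0.045). RpS10a was not called once HP1a was low (log2 fold change -0.71, adjusted p = 0.15). Naglu, a lysosomal enzyme gene, went the other way. It fell from 36.4 and 39.0 in Ctrl to 7.05 and 6.80 in the HP1a-GKD-labelled libraries, and had 5.65 and 5.98 in the Piwi-GKD-labelled ones and 4.18 and 3.19 in double-GKD (interaction 1.94, adjusted p = 0.029). yin, a peptide transporter gene, fell from 88.5 and 81.6 to 52.5 and 51.6 with normal HP1a mRNA and lay between 7.41 and 9.22 in the other 4 libraries (interaction 0.81, adjusted p = 0.0496). flip, which had a Burdock insertion inside the gene in double-GKD DNA, was at 12.9 and 9.72 in the HP1a-GKD-labelled libraries and 0.170 and 0.375 in Ctrl. It had 2.13 and 1.88 in the Piwi-GKD-labelled libraries and 2.91 and 2.56 in double-GKD (interaction -4.64, adjusted p = 0.015). Its levels and insertion match those of CG9766 in the study's list of genes beside TE insertions. Entry to that list asked for a rise in each single knockdown, which favours a negative interaction.

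Genes beside TE insertions were examined as a group from the 14 that the study lists for this property. The list was drawn up on these libraries, from genes more than 2-fold higher than Ctrl in each single knockdown. Its direction against Ctrl is therefore not independent evidence, and this entry rule also favours a negative interaction. Of the 14 listed genes, CG9766 has in the study the mean levels and the burdock insertion of flip. It was tested as flip only and is not in the counts that follow. Of the others, 12 were tested, and 3 of these were higher in double-GKD than in the Piwi-GKD-labelled libraries (background 0.417%), none lower. The median log2 fold change of the 12 was -0.01, against 0.01 for all genes. With normal HP1a mRNA, 9 of the 12 were higher, with a median log2 fold change of 3.30, or 2.29 with the 2 genes at 0 in Ctrl set to their lower bound, and for each of the 12 the fitted log2 fold change was lower once HP1a was low. The interaction was called for CG7296, Cyp12a4 and CG42319 of the 12, and also for flip. In all 12, both Piwi-GKD-labelled libraries lay above both Ctrl libraries, against 55.2% of all tested genes. The entry rule itself asks for such a rise, so this is only a description.

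CG7296 (2L) was at 0.688 and 0.604 TPM in Ctrl, 47.7 and 42.6 in the HP1a-GKD-labelled libraries, 2.20 and 1.98 in the Piwi-GKD-labelled ones and 5.14 and 6.12 in double-GKD. It rose 65.3-fold with normal HP1a mRNA and 2.86-fold with low HP1a mRNA (log2 fold change 1.52 ± 0.24 SE, adjusted p = 0.043), and the interaction was -4.51 (adjusted p = 0.0048). Cyp12a4 (3R), a P450 gene, had 19.1 and 16.1 TPM in the Piwi-GKD-labelled libraries and 32.6 and 28.0 in double-GKD, a 1.82-fold rise (adjusted p = 0.035), against 8.59-fold with normal HP1a mRNA (interaction -2.24, adjusted p = 0.0048). CG34002 (3L) rose from 2.64 and 3.07 to 7.85 and 7.46 TPM (adjusted p = 0.032), and for CG34002 the interaction missed the threshold (adjusted p = 0.088). CG42319 was at 2.85 and 2.08 in the Piwi-GKD-labelled libraries and 2.24 and 2.09 in double-GKD, which overlap, whereas it rose 14.4-fold with normal HP1a mRNA (interaction -4.19, adjusted p = 0.0078). Each of the 3 rises was lost without any 1 of the 4 libraries (adjusted p from 0.100 to 0.315), and CG7296 rests on 8 counts in each Piwi-GKD-labelled library.

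The other 8 of the 12 counted members were CG17549, CG32814, CG3348, CG34430, CG13168, CG9380, CG9616 and TfIIA-S-2. They had log2 fold changes between -0.71 and 2.55 with low HP1a mRNA and adjusted p of 0.18 or above. CG34430 gave the largest of these, with 2 counts in each Piwi-GKD-labelled library and 15.0 and 9.0 in double-GKD. CG9380 had the smallest log2 fold change in size, 0.07, with 12.7 and 12.4 TPM against 12.5 and 12.3. CG43391 was left out by the filter on low counts, with 0 and 10.3 TPM in the Piwi-GKD-labelled libraries and 0 and 57.4 in double-GKD.

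**Figure D5:**
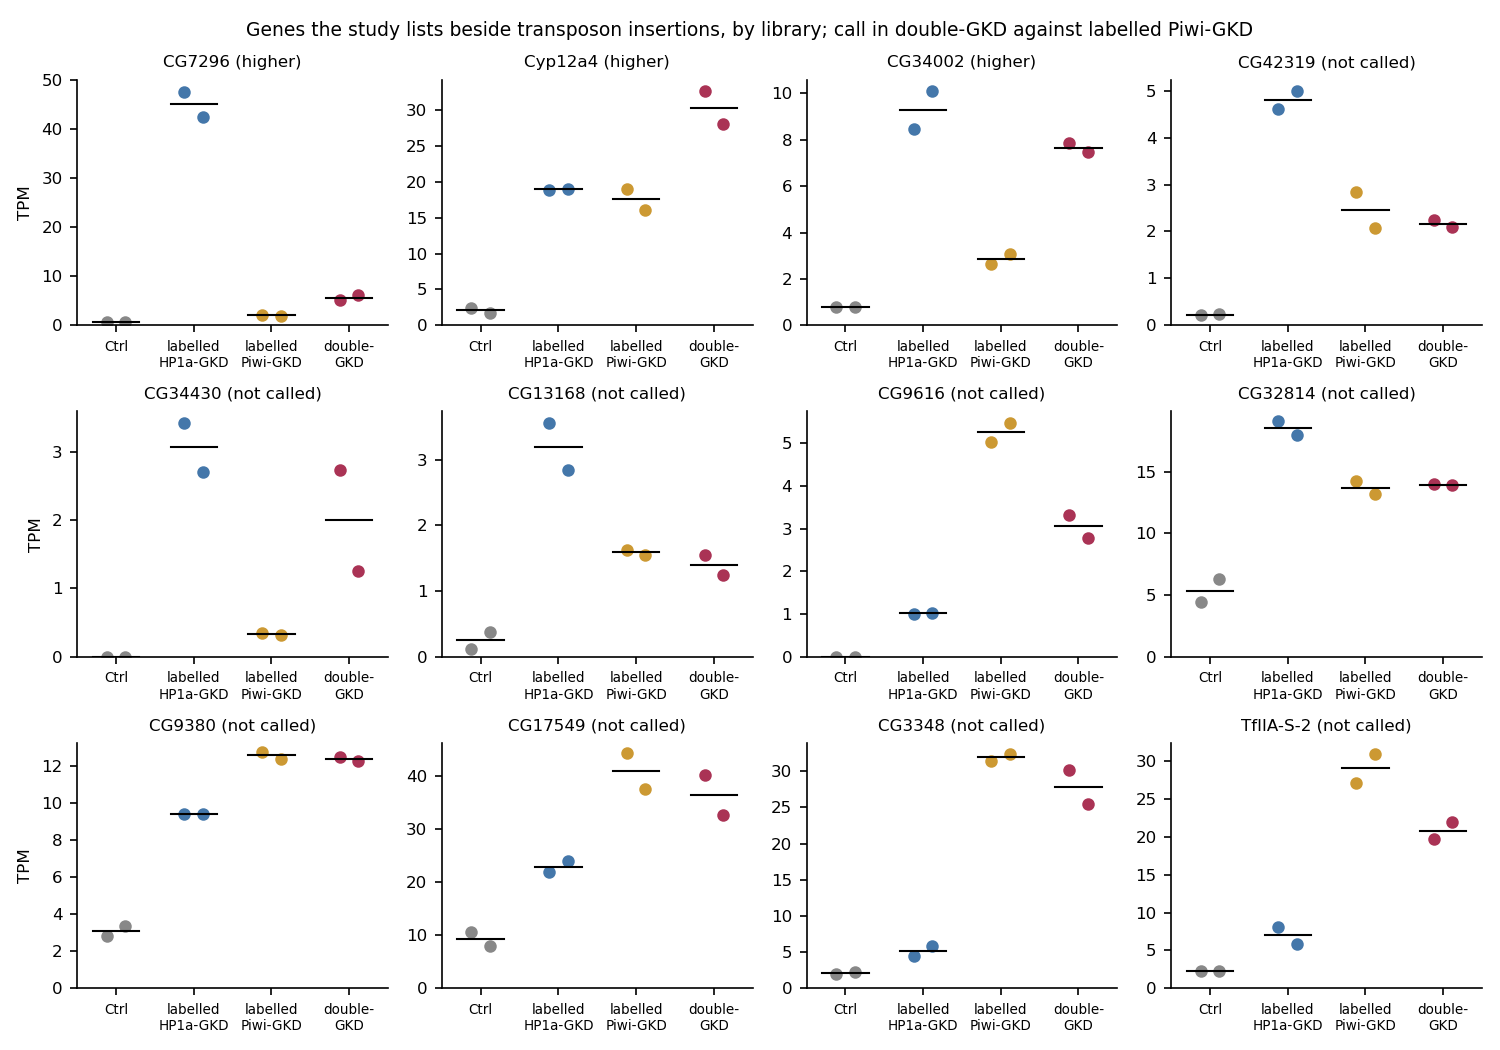
TPM of 12 tested genes that the study lists beside TE insertions, by group, with a point for each library and a line at the mean of 2. The listed CG9766, tested as flip, is not shown. CG7296, Cyp12a4 and CG34002 are higher in double-GKD than in the Piwi-GKD-labelled libraries, and the other 9 were not called.

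Insertion sites of double-GKD flies, called from 1 genomic DNA library without replicates, were set beside genes with known positions on release 5 of the genome. Of 1816 tested genes with such positions, 455 (25.1%) lay within 10 kb of a site. Among the 16 called genes with positions, 6 were near a site (37.5%), and these were 6 of 9 higher genes and 0 of 7 lower ones. With only sites supported from both sides, the same number of called genes, 6 of 16, stood beside 10.5% of the tested genes, and within 3 kb it was 4 of 16 beside 13.8%. They are w, Gart, ndl, CG7296, CG34002 and Cyp12a4, 3 of which come from the list chosen for this property. CG7296 had a 412 element at position 10685550 of 2L, 0.841 kb outside the gene, with a frequency of 0.855. Cyp12a4 had a Bari1 element 0.871 kb away at 14963729 of 3R with a frequency of 1 and a 412 element 0.442 kb away at 14960443 with a frequency of 0.678. CG34002 had hopper2 at 17855720 and invader4 at 17854386 of 3L, both with a frequency of 1, 2.14 and 0.804 kb away. Frequency is the fraction of read pairs at a site that support the insertion, and the number of pairs behind it is unknown. The counts are too small to set apart from the background.

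w, the white eye pigment transporter gene, is also the usual marker of fly transgenes. It was at 54.0 and 39.7 TPM in the Piwi-GKD-labelled libraries and 99.0 and 70.8 in double-GKD, a 1.91-fold rise (log2 fold change 0.93 ± 0.14 SE, adjusted p = 0.035), and was lost when only the 4 libraries were fitted (adjusted p = 0.099). Transcripts of marker copies and of the gene at its own locus cannot be told apart.

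Few genes of the silencing pathways were called, and the share called over all tested genes was 1.04%. For lists this short, counts near that share do not show whether the pathways changed. Of 9 tested genes of nuclear piRNA silencing, only piwi was called, with a median log2 fold change of -0.05. The partners of Piwi in the nucleus, arx, nxf2, mael, egg, wde and Su(var)2-10, lay between -0.25 and 0.18. None of 12 genes for piRNA cluster transcription and export passed, among them rhi (-0.38, adjusted p = 0.49), which encodes the HP1 paralog Rhino, and del (0.01). Of 20 genes of piRNA biogenesis, qin alone was called. krimp, another nuage Tudor gene, had 33.7 and 31.7 TPM in the Piwi-GKD-labelled libraries and 19.0 and 21.3 in double-GKD, with an adjusted p of 0.067, and AGO3, the Argonaute partner of aub in piRNA amplification, 58.0 and 67.0 against 33.8 and 40.6 (adjusted p = 0.30). The 8 genes of the siRNA and miRNA pathways had log2 fold changes between -0.14 and 0.13, with none called.

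Of 17 tested heterochromatin genes none was called, with a median of -0.05. For this list and those that follow, the share called over all tested genes was 1.04%. HP6, which encodes a small relative of HP1, was at 83.0 and 89.6 TPM in the Piwi-GKD-labelled libraries and 29.0 and 29.4 in double-GKD, and missed the threshold (log2 fold change -1.49, adjusted p = 0.063). In Ctrl, HP6 was at 6.48 and 3.90. Of the 7 factors that the study lists as activators of TEs none passed, with cad, a homeodomain transcription factor, at 1.71 and 0.916 against 2.42 and 2.03 TPM (adjusted p = 0.23) and 32.4 and 21.6 in Ctrl. None of 14 heat shock genes, 4 tested antimicrobial peptide genes, 5 follicle cell markers, 7 muscle genes, 5 fat body genes or 3 haemocyte genes was called. The median log2 fold change was 0.17 for the follicle list, -0.15 for muscle, -0.47 for fat body and -0.38 for haemocytes, and the single tested gut gene had 0.26. For the list of genes around RNAi landing sites and markers of chromosome 2, w and pr were higher of 5 tested (background 0.417%).

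The most extreme log2 fold changes came from genes whose start and end coincide with those of a neighbour, between which Salmon can divide the same reads. Rpp20 had 459 and 312 counts in the Piwi-GKD-labelled libraries and none in double-GKD, and its partner CG33932 none and then 411 and 459. The sum of both had a log2 fold change of 0.20 (adjusted p = 0.70). sloth1 had 213 and 208 counts in the Piwi-GKD-labelled libraries and 0 and 2.45 in double-GKD, and sloth2 none and then 174 and 236, with a summed log2 fold change of -0.019 (adjusted p = 0.98). The third such call, CG42740, did not pass after summing with CG2217 (adjusted p = 0.61). The changes of these genes are therefore exchanges of reads within a pair and were not seen in the sums.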

How the data were processed

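Ovarian RNA of 4 genotypes, 2 biological replicates each, was depleted of rRNA and sequenced by the authors as single-end 50-nt reads, aligned with STAR to release 5 of the genome (dm3) and quantified per gene with Salmon against annotation BDGP5. Tool versions and the use of strand are not given in the sources used here. The deposited estimated counts are Salmon's numbers of reads per gene, not normalized. The deposited TPM values are counts per effective length scaled to 1000000 per library, not scaled between libraries, and the deposited effective lengths are in bases. Insertion sites were called by the authors from 1 genomic DNA library, with the deposited frequency as a fraction of read pairs.

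Groups came from the sample labels and the comparison from the table names. Names for 13485 of 13937 genes came from the paper's tables and a Release 6 gene table, which also gave the chromosome arm. Gene positions on release 5 came from the paper's supplementary tables for 2013 genes. After rounding, counts of all 8 libraries entered the quasi-likelihood test of edgeR (version 4.0.16, under R 4.3.3 with limma 3.58.1), with TMM, filterByExpr and Benjamini-Hochberg adjustment over 9346 genes. The interaction is the first log2 fold change minus that of the HP1a-GKD-labelled libraries against Ctrl. The standard error is the size of the log2 fold change over the root of its F value. In the shallowest of the 4 libraries, 3 counts stand at 0.278 CPM, a floor that covers counting error only.

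The text names piwi, Su(var)205, Dcr-2, w, the 8 called genes with the highest and the 8 with the lowest log2 fold change and the 4 smallest adjusted p in each direction (at least 100 counts over the 4 libraries, groups apart), 10 shared and 10 interaction genes with the smallest adjusted p, called list members and the study's TE-adjacent genes. Other genes were named after their values were seen. The members and lists were chosen with earlier results of these data known. Alternatives were DESeq2 1.42.0 and its size factors, no filter, a replicate block, the 4 libraries alone, limma on log2(TPM + 1), summed counts of the 263 genes with a shared span, and each library left out. On simulated data with known changes the fit was tested before use.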

Additional observations from a re-analysis of the deposited data

Results flagged for a closer look

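The interaction tests whether the log2 fold change of a gene differed between low and normal HP1a mRNA, and 20 of the named genes were picked out because it passed the adjusted threshold. Given as the log2 fold change with low HP1a mRNA minus that with normal HP1a mRNA, the difference was -2.24 for Dcr-2, -3.62 for RpL22-like, 1.48 for clos, -3.09 for CG30345, -3.20 for CG2187 and -3.26 for twz. Among the genes listed beside TE insertions it was -4.51 for CG7296, -2.24 for Cyp12a4 and -4.19 for CG42319. It was -4.64 for flip, which matches the listed CG9766 and was named after its values were seen. The entry rule of that list favours negative values. RpL22-like and clos moved once HP1a was low and did not pass with normal HP1a mRNA, where RpL22-like was near the floor. Dcr-2, CG30345, CG2187, twz and CG42319 did the opposite. CG7296 and Cyp12a4 rose in both. Of the other genes named after their values were seen, the difference was -2.44 for gNacalpha, -2.10 for hiw, -1.89 for RpS10a, 1.94 for Naglu and 0.81 for yin. For CG15930, called in opposite directions, it was -1.97. For CG33932 (11.43), Rpp20 (-11.29), sloth1 (-7.67) and CG42726 (-10.40) the values are uncertain, since each shares its start and end with another gene and has a group with few or no counts. Groups of 2 libraries were not searched for outliers.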

How the results depend on the processing

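The counts of genes called depended on the fit more than the directions did. DESeq2 called more in double-GKD against the Piwi-GKD-labelled libraries (102 higher, 119 lower), in the HP1a-GKD-labelled libraries against Ctrl (135 and 98), in both in the same direction (61, with 53 on chromosome 2) and in the interaction (84). A fit of only the 4 libraries, with fewer samples to estimate the spread, called 15 higher and 26 lower genes, and limma on log2(TPM + 1) called 130 lower genes. With the replicate number as a block, 68 higher and 95 lower genes were called, 74 lower genes in the other comparison and 54 in the same direction in both. Deviations of same-numbered libraries correlated by 0.11 between the Piwi-GKD-labelled libraries and double-GKD and by -0.04 to 0.23 over the 6 pairs of groups, and the labels do not tie the numbers to a shared batch, so the samples share only a number. All 97 calls were kept under the block. With 1 library left out, which assumes that the lone library varies like the other groups, the calls ranged from 10 to 18 higher and 4 to 22 lower, from 19 to 40 and 4 to 23 in the other comparison, from 4 to 18 shared (4 to 17 on chromosome 2), and from 10 to 33 in the interaction, with 60.9 to 75.0% of calls on chromosome 2. DESeq2 size factors and the absence of a filter kept each count within 1.5 times. When counts of genes with a shared span were summed, the log2 fold change turned to -0.019 for sloth2 and 0.20 for Rpp20, because each then holds the reads of its partner.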
